A study of Homo sapiens and Mus musculus with 19 samples.

Results

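The genes described here are 9 targets of the transcription factor NRF2 in lung cancer cell lines whose NF-kB pathway was activated or blocked. They are NQO1, HMOX1, GCLC, GCLM, TXNRD1, SRXN1, SLC7A11, AKR1B10 and AKR1C1, chosen by name as known targets, and each was read from the brightest probe set that names this gene only. All 9 were among the 19775 genes of the human arrays that could be read this way, and all 9 passed the filter on dim genes. On the mouse arrays 8 counterparts of the same name were found among 18193 genes. AKR1C1 has no single mouse counterpart.

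NRF2, encoded by NFE2L2, switches on genes for detoxification, glutathione synthesis and the thioredoxin system. In unstressed cells the adaptor KEAP1 binds NRF2 and brings it to the CUL3 ubiquitin ligase, which leads to its breakdown. Oxidants and electrophiles modify KEAP1, and mutations of KEAP1 in lung adenocarcinoma can likewise leave NRF2 in place. NRF2 binds with a small MAF protein to a short DNA motif, the antioxidant response element. A549 and H23 are known as lines with a KEAP1 mutation, which is background from outside these data, since the labels give no KEAP1 genotype.

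The human arrays covered A549, H23, H358, HCC827 and PC9, each with 3 retroviral vectors and 1 array per line and vector. The vector IKKb carried an activated IKKβ, the kinase that releases NF-kB from its inhibitor, IkB_SR carried a super-repressor form of the inhibitor IkBα, and MiG, the same retrovirus without an insert, carried a green fluorescent marker alone. All cells were sorted on that marker. Mouse Lewis lung carcinoma cells (LLC, named LLC-kB OVA in the labels, a term they do not explain) carried IKKb or MiG, with 2 arrays per vector. The human cells were grown in RPMI and the mouse cells in DMEM, both with serum.

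Values are MAS5 signals, an intensity per probe set, and the trimmed mean of each array was 500 as deposited. The median of an array was 51.3 to 76.5 in human and 55.0 to 64.4 in mouse cells. The vectors could be read from 6 measured NF-kB target genes, all 6 of which were higher with IKKb than with IkB_SR (median log2 difference 1.93). Line by line, the median log2 ratio of these 6 was 0.39 to 1.70 for IKKb against MiG. For IkB_SR against MiG it was -1.12 to -1.28 in A549, H23, HCC827 and PC9 but -0.02 in H358, with 3 of the 6 positive, so the H358 IkB_SR array did not show lower NF-kB targets than its MiG array. The Dap spike-in, RNA added in the laboratory, was 154 to 161 on the A549 arrays and at least 1103 on every other human array, and within lines it ran from 1103 to 4376 in H358 and from 2376 to 4354 in PC9. The actin 3′ to 5′ ratio, a sign of RNA and labelling quality, was 1.03 to 1.07 in A549 and 1.17 to 1.74 on the other arrays, with the highest value on the H358 IKKb array, which also had the highest Dap signal. Both measures moved with the line, and their part in differences between lines was not tested. Of 9 epithelial markers, 7 to 9 lay above the 40th percentile of every array of each human line, while NKX2-1 was below it in A549, HCC827 and PC9 and KRT19 in H23. In LLC, Cdh1, Napsa and Nkx2-1 were below it and Krt8, Krt18 and Sftpb above. Of 4 leukocyte markers read, PTPRC was below it on all arrays of A549, H23, H358 and PC9, but CD14 and CD3E were above it on all arrays of A549 and CD14 on all of H23. Their summed signal was 196 to 372 in A549 and 63.5 to 204 in the other lines, and 2 of 3 tested were higher in A549, where their part in the results was not tested. In LLC Ptprc was below and Cd14 and Cd68 were above. Of 6 fibroblast and endothelial markers, COL1A1 and PECAM1 were above and PDGFRB below on all arrays of every human line. In LLC Col3a1 and Pdgfrb were above and Col1a1 and Pecam1 below on all arrays. The 6 markers summed to 10150 to 20300 on the LLC arrays, and the 9 epithelial markers to 9566 to 14680.

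RefSeq promoter windows of build GRCh38.p14 were at hand for 6 of the 9 members, NQO1, GCLC, GCLM, TXNRD1, SRXN1 and AKR1C1, and not for HMOX1, SLC7A11 and AKR1B10. They were searched for the core of the antioxidant response element, TGACNNNGC, on both strands of the 250 bases before the start. The motif was found in the window of GCLM and in both windows of TXNRD1, and in 10.9% of all 35116 windows of the table. The stretches that hold it are shown because these genes are read below, with the motif in capitals and each sequence 5′ to 3′ on the strand of the gene. The GCLM stretch is chr1:93909431-93909509 on the minus strand, and the TXNRD1 stretches are chr12:104215635-104215733 and chr12:104286885-104286983 on the plus strand. The GCLM stretch ends at the base before the start. The TXNRD1 stretches stop short of it, with the motif 99 to 91 and 102 to 94 bases before the first and second start.
GCLM: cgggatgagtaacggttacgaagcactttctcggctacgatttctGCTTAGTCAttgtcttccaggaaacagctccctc
TXNRD1, first start: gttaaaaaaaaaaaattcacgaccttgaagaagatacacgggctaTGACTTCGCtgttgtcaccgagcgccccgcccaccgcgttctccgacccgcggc
TXNRD1, second start: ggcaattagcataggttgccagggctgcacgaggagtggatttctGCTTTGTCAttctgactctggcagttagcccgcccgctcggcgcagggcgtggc
In GCLM and at the second TXNRD1 start the capitals read as the opposite strand of the motif. The windows of NQO1, GCLC, SRXN1 and AKR1C1 did not hold these letters. A match describes the letters in the window and is not a measured binding site.

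The first question was how high the members stood in each line. A549 had the highest level of 7 members and the next highest of the other 2, PC9 was highest for GCLM and TXNRD1 and next highest for 6, and HCC827 was lowest for 5. In limma's test of each line against the mean of the other 4, all 9 members were higher in A549, where 29.2% of the 16246 genes tested were higher. In PC9 8 members were higher and HMOX1 was lower, against 24.5% of all genes higher and 29% lower. In H23 only TXNRD1 was higher and 6 members were lower, against 32.4% higher and 26.5% lower. In H358 only GCLC was higher and 6 were lower, against 29.6% and 25.2%, with SLC7A11 missing the threshold without the MiG arrays (-0.24, adjusted p 0.182). In HCC827 all 9 were lower, against 30.5% of all genes. The median log2 difference of the members was 1.67 in A549, 0.61 in PC9, -0.56 in H358, -0.81 in H23 and -1.69 in HCC827, and that of all genes lay between -0.10 and 0.09. Median centring moved the median of all genes by -0.14 in A549 and in H23, 0.20 in HCC827 and 0.12 in PC9, and turned the sign of no member past the threshold. Each line is 3 arrays, 1 per vector, so the spread behind these tests is that between 3 transduced cultures of a line after the vector's mean effect. As these are bulk samples, fewer cells with a transcript and less of it per cell cannot be told apart.

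**Figure D1:**
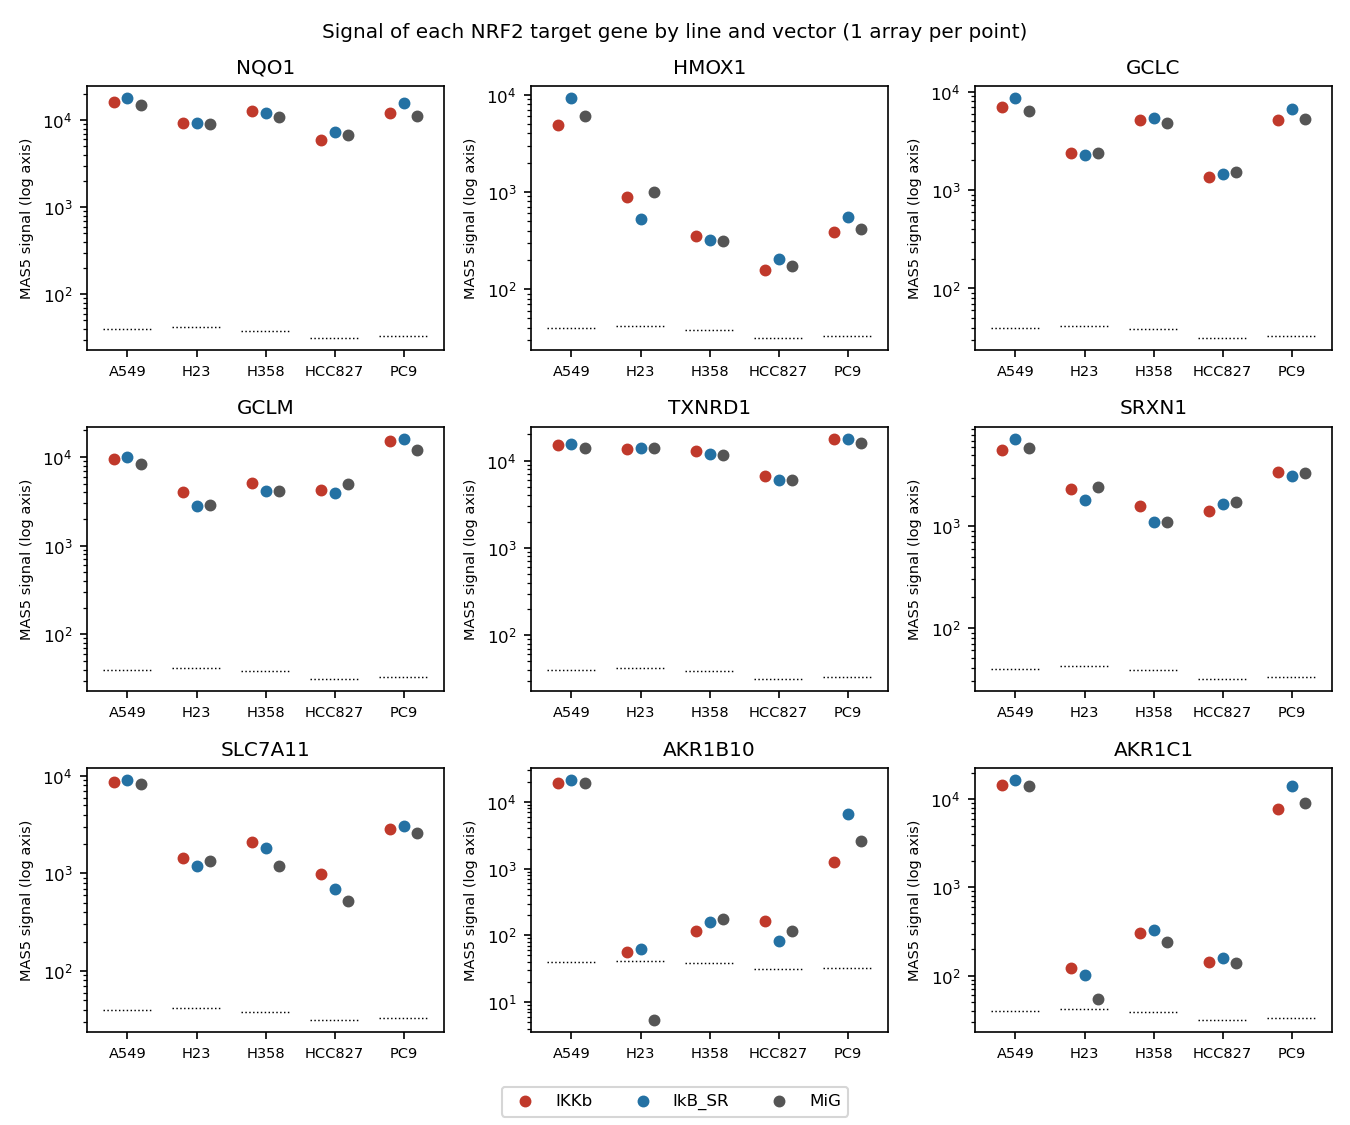
MAS5 signal on a log axis for each of the 9 genes (panels) by line, with 1 point per array coloured by vector, and dotted lines at the mean 40th percentile of the arrays of a line. AKR1B10 and AKR1C1 span the widest range, from 5.32 in H23 with MiG to 21292 in A549 with IkB_SR for AKR1B10, and TXNRD1 is at least 6055 everywhere.

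NQO1 encodes a quinone reductase and is the standard readout of NRF2. Its signals with IKKb, IkB_SR and MiG were 16053, 17979 and 15014 in A549, and 12163, 15806 and 11279 in PC9. They were 12628, 11942 and 10804 in H358, 9272, 9225 and 9024 in H23, and 5988, 7292 and 6796 in HCC827. Ranges of neighbours in that order overlapped from A549 to PC9 to H358, while A549 and H358 did not overlap and H23 and HCC827 stood below. In 2 further NQO1 probe sets A549 did not overlap PC9. They had 15223 to 17825 against 8990 to 14213, and 9138 to 11987 against 4148 to 7070. The A549 level was 1.66-fold that of the other 4 lines (log2 0.73 ± 0.08, SE, adjusted p 3.01e-06), and these 2 further probe sets gave 2.65-fold and 3.01-fold. In PC9 the difference was 0.31 ± 0.08 (adjusted p 0.00537), which did not pass without the IkB_SR arrays (0.21, adjusted p 0.13). H23 was lower by -0.31 ± 0.08 (adjusted p 0.00551), also not past the threshold without the IkB_SR arrays (-0.24, adjusted p 0.0783).

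AKR1B10, an aldo-keto reductase that reduces aldehydes such as retinal, set the lines apart most. Its signals with IKKb, IkB_SR and MiG were 19342, 21292 and 18955 in A549, against 1271, 6605 and 2576 in PC9. They were 117, 158 and 177 in H358, 164, 83.2 and 118 in HCC827, and 55.6, 62.2 and 5.32 in H23. A549 and PC9 stood apart from each other and from the other lines, H358 overlapped HCC827, and H23 lay below both. The last value was the only one of a member below the 40th percentile of its array. A549 was 84.6-fold above the mean log2 level of the other lines (6.40 ± 0.38, adjusted p 3.97e-09). PC9 was 7.33-fold above such a mean (2.87 ± 0.38, adjusted p 1.64e-05), which includes the far higher A549. H23 was lower by -4.42 ± 0.38 (adjusted p 1.46e-07), also against a mean that includes A549.

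AKR1C1, which reduces steroids and other carbonyls, followed the same order. With IKKb, IkB_SR and MiG it had signals of 14383, 16499 and 14032 in A549, against 7701, 13970 and 9092 in PC9. It had 305, 331 and 239.9 in H358, 141, 157 and 138 in HCC827, and 123, 103 and 54.8 in H23. No neighbours in that order overlapped. A549 was 31.4-fold above the mean log2 level of the other 4 lines (4.97 ± 0.15, adjusted p 4.32e-12). PC9 was 18.8-fold above such a mean (4.24 ± 0.15, adjusted p 3.4e-11), in which the higher A549 is 1 of the 4 lines. H23 was lower by -3.97 ± 0.15 (adjusted p 2.4e-11). AKR1C1 shares long stretches with its close relatives AKR1C2 and AKR1C3 and its brightest probe set is of a type that may read more than 1 of them, so the level of AKR1C1 alone is uncertain. Another AKR1C1 probe set, dimmer and of a gene-specific type, had 1304, 2035 and 3261 in A549 with IKKb, IkB_SR and MiG, 111, 521 and 154 in PC9, and 15.4 to 43.3 in the other lines. It gave 31.9-fold in A549 and 0.279-fold in H23, and its lowest line was HCC827, so the distance between A549 and PC9 and the order of the low lines depend on the probe set.

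HMOX1, heme oxygenase, breaks down heme. It had signals of 4830, 9259 and 5994 in A549 with IKKb, IkB_SR and MiG, against 892, 529.6 and 1009 in H23. It had 385, 555 and 417 in PC9, 356, 324 and 315 in H358, and 157, 202 and 173 in HCC827. A549 stood far above, H23 overlapped PC9, and H358 and HCC827 lay below without overlap. A549 was 16.3-fold above the other lines (4.03 ± 0.19, adjusted p 4.37e-10). In H23 HMOX1 differed by 0.25 ± 0.19 (adjusted p 0.274), but by 0.65 without the IkB_SR arrays (adjusted p 0.0011). PC9 was lower by -0.73 ± 0.19 (adjusted p 0.00516), against a mean that includes A549. The PC9 difference did not pass without the MiG arrays (-0.66, adjusted p 0.0776).

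GCLC and GCLM encode the catalytic and modifier subunits of glutamate-cysteine ligase, the rate-limiting enzyme of glutathione synthesis. GCLC signals with IKKb, IkB_SR and MiG were 7002, 8630.5 and 6430.1 in A549, against 5207, 6692 and 5239 in PC9, and ran from 4800.1 to 5409.9 in H358, 2264 to 2369 in H23 and 1359 to 1523 in HCC827. The top 3 lines overlapped as neighbours, and H23 and HCC827 were lower without overlap. In the next brightest GCLC probe set A549, at 5989 to 6751, did not overlap PC9, at 2285 to 3401. It gave 4.24-fold in A549, and a dim further one gave 1.41-fold, so this overlap and the fold depend on the probe set. GCLC was 2.31-fold higher in A549 (1.21 ± 0.08, adjusted p 1.76e-08) and lower in H23 (-0.84 ± 0.08, adjusted p 6.23e-07). GCLM was highest in PC9, with 15057, 15935 and 12039.9, against 9366, 10092 and 8247 in A549. It ran from 4128 to 5044 in H358, 3976 to 4916 in HCC827 and 2834 to 4008 in H23, and these 3 lines overlapped as neighbours. PC9 was 2.91-fold above the other lines (1.54 ± 0.11, adjusted p 2.79e-08) and A549 1.69-fold (0.76 ± 0.11, adjusted p 2.66e-05).

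TXNRD1, thioredoxin reductase, and SRXN1, which repairs overoxidised peroxiredoxins, belong to the thioredoxin system. TXNRD1 had signals of 17702, 17681 and 15950.0 in PC9, 14977, 15369 and 14021 in A549, and 13539.5, 13989 and 14123 in H23 (IKKb, IkB_SR, MiG). It ran from 11547 to 12921 in H358 and from 6055 to 6694 in HCC827, so that HCC827 stood apart while A549 and H23 overlapped. A549 differed by 0.35 ± 0.07 (adjusted p 0.000324), which missed the threshold with median centring (0.22, adjusted p 0.0532) and with the mean of its probe sets (0.25, adjusted p 0.0559). That mean takes in a second TXNRD1 probe set with a mean signal of 5.19, above the 40th percentile on 0 of the 15 human arrays. The H23 difference of 0.24 ± 0.07 (adjusted p 0.00588) missed the threshold in 5 settings, among them quantile normalization (0.03, adjusted p 0.633). SRXN1 signals were 5647, 7251 and 5863 in A549, against 3402, 3143 and 3340.1 in PC9, and ran from 1811 to 2419 in H23, 1411 to 1728 in HCC827 and 1102 to 1599 in H358. A549 was 3.18-fold above the other lines (1.67 ± 0.12, adjusted p 3.5e-08) with no overlap.

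SLC7A11 is the cystine importer that feeds glutathione synthesis, and ATF4 also induces it. Its signals with IKKb, IkB_SR and MiG were 8609.6, 9069.9 and 8206 in A549, against 2845, 3037 and 2596 in PC9. They were 2079, 1824 and 1199.5 in H358, 1443, 1191 and 1327 in H23, and 987, 688 and 519 in HCC827. A549 and PC9 stood apart from each other and the rest, and H358 overlapped H23. A549 was 5.91-fold above the other lines (2.56 ± 0.13, adjusted p 5.91e-10), and H23 was lower by -0.81 ± 0.13 (adjusted p 5.81e-05).

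**Figure D2:**
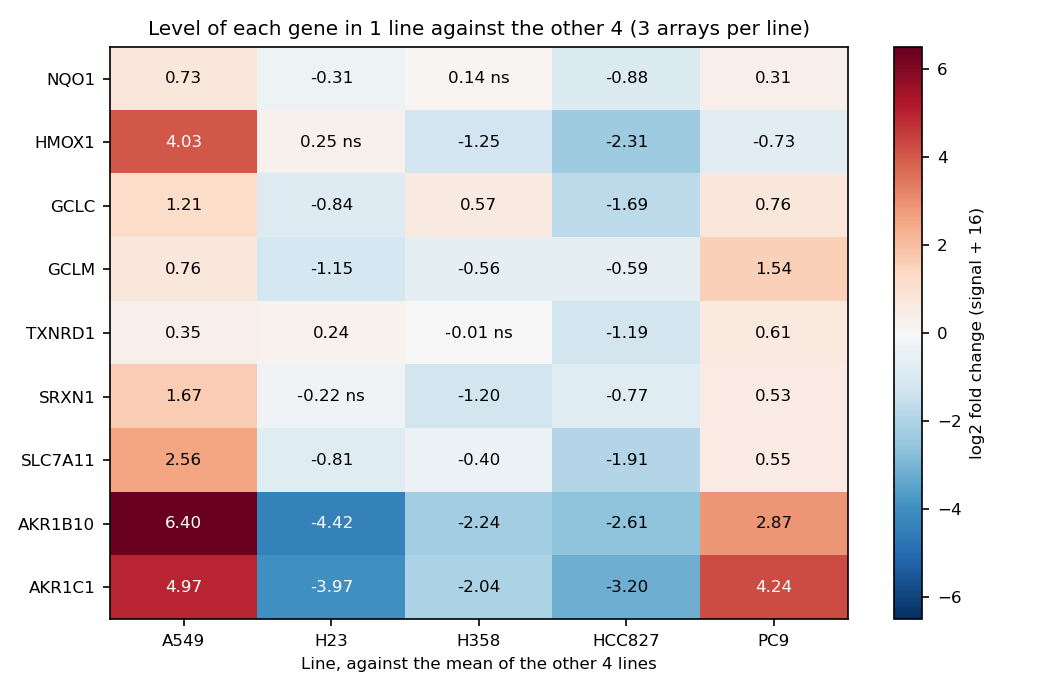
Log2 difference of each gene (rows) between 1 line (columns) and the mean of the other 4 from the limma fit on log2(signal + 16), 3 arrays per line, coloured from blue (lower) to red (higher), with "ns" where the adjusted p was 0.05 or more. The A549 column is positive throughout, from 0.35 to 6.40, and the HCC827 column is negative throughout, from -0.59 to -3.20.

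Since A549 and H23 are the lines known for a KEAP1 mutation, they were also set against each other. With 26.2% of all genes higher in A549 than in H23, 8 of the 9 members were higher in A549, and for these 8 the arrays of the lines did not overlap, as for 65.7% of all genes in either direction. The exception was TXNRD1 (0.09 ± 0.08, adjusted p 0.383), which passed with quantile normalization (0.55, adjusted p 9.55e-06). AKR1B10 differed by 8.66 ± 0.48 on the log2 scale (adjusted p 1.96e-09), but 1 of its 3 H23 arrays was below the 40th percentile, and the difference was 7.61 with a pseudocount of 64, 9.45 with a pseudocount of 1 and 8.08 without the MiG arrays. AKR1C1 differed 142-fold (7.15 ± 0.19, adjusted p 1.1e-12), HMOX1 8.10-fold and SLC7A11 6.48-fold. NQO1, at 1.78-fold, had the smallest difference of the 8. In H23, 8 of the 9 members thus stood below their A549 level, and 6 of the 9 below the mean of the other 4 lines.

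Other NRF2 targets were read from a list of 30 genes, 25 of which were tested. In A549 22 of them were higher and 0 lower (median log2 difference 1.71), where 29.2% of all genes were higher and 30.3% lower. In PC9 16 were higher and 3 lower (0.46), against 24.5% and 29%. In H23 1 was higher and 20 lower (-1.34), against 32.4% and 26.5%, in HCC827 1 and 17 (-0.62), against 25.6% and 30.5%, and in H358 3 and 12 (-0.33), against 29.6% and 25.2%. Here too the mean for every line but A549 includes A549. Examples were GPX2, a glutathione peroxidase, at 7.02 ± 0.55 in A549 and -2.81 ± 0.55 in H23, ALDH3A1, an aldehyde dehydrogenase, at 6.22 ± 0.20 and -3.77 ± 0.20, and PGD, of the pentose phosphate pathway, at 2.69 ± 0.10 and -1.94 ± 0.10. AKR1C2 was below the 40th percentile on every H23 array and at least 284-fold higher in A549 (mean signals 16419 and 13.4). FTL, ferritin light chain, differed by 0.06 ± 0.10 in A549 (adjusted p 0.663) and TXN, thioredoxin, by -0.24 ± 0.11 (adjusted p 0.0603). These genes share the arrays with the members and are no separate evidence on a line.

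**Figure D3:**
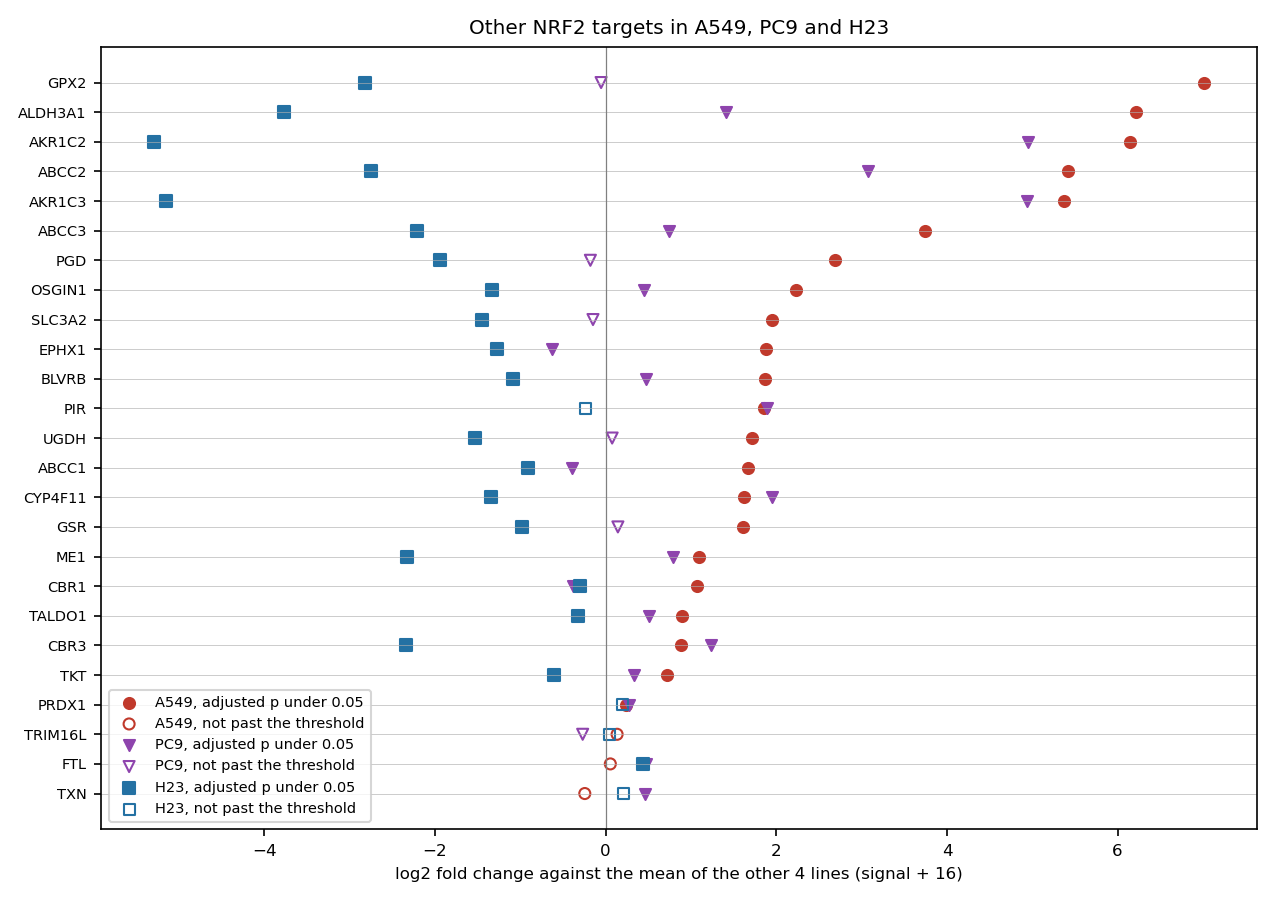
Log2 difference from the mean of the other 4 lines for the 25 other NRF2 targets tested (rows), for A549 (circles), PC9 (triangles) and H23 (squares), filled where the adjusted p was under 0.05. A549 is filled to the right for 22 genes and H23 filled to the left for 20.

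The regulators of NRF2 were read in the same way. NFE2L2 transcript was lower in A549 (-0.83 ± 0.07, adjusted p 1.78e-07), with signals of 4404, 4590 and 4263 with IKKb, IkB_SR and MiG. It was higher in H23 (0.65 ± 0.07, adjusted p 1.84e-06), with 10441, 9438 and 10347, and in PC9 (0.35 ± 0.07, adjusted p 0.000749). KEAP1 transcript differed by -0.11 ± 0.11 in A549 (adjusted p 0.376) and by -0.22 ± 0.11 in H23 (adjusted p 0.0837), and was 2.54-fold higher in PC9. MAFG, a small MAF partner (0.84 ± 0.11), SQSTM1, which binds KEAP1 (1.35 ± 0.14), and BACH1, a repressor of HMOX1 (0.52 ± 0.12), were higher in A549, while CUL3 and MAFF were lower. Transcript levels do not report NRF2 protein, which is set largely by its breakdown.

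The second question was whether the vectors moved the members. No member passed the test over the 5 lines between IKKb and MiG (adjusted p 0.878 to 0.993), where 0% of 15189 genes passed, nor between IkB_SR and MiG (adjusted p 0.996 for each), again with 0%. Between IKKb and IkB_SR 0 of 9 passed (adjusted p 0.402 to 0.843), against 0.922% of all genes. At an unadjusted p under 0.05 the members counted 1, 2 and 0 in the 3 contrasts, and all genes 838, 662 and 2159. The 6 NF-kB targets all had an unadjusted p under 0.05 in both contrasts with MiG (median log2 1.02 and -0.96), yet 0 of them passed there. Missing the threshold against MiG therefore does not show that a gene was unmoved. The contrasts with MiG share its 5 arrays. With IKKb against MiG 8 of 9 members had a positive mean difference (median log2 0.10, with 46.1% of all genes positive), and with IkB_SR against MiG also 8 of 9 (median 0.17, with 49.9% of all genes positive).

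**Figure D4:**
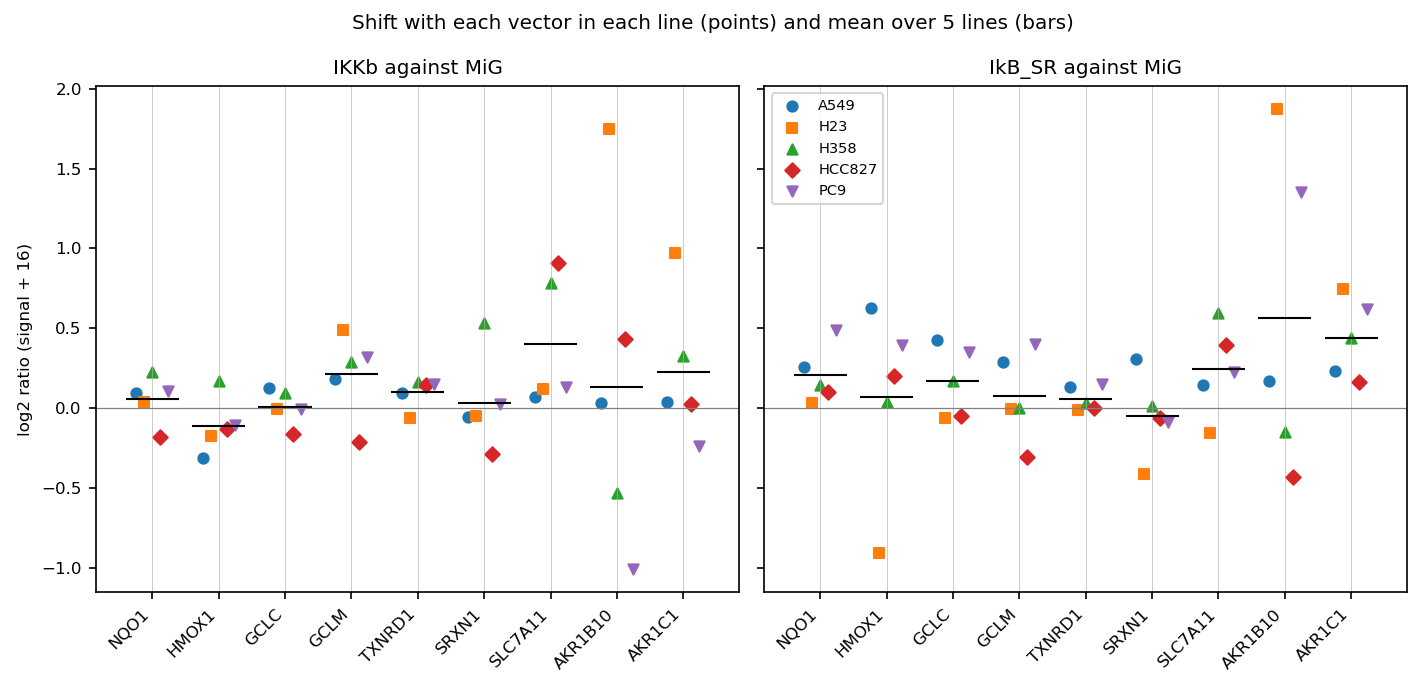
Log2 ratio of signal + 16 for IKKb against MiG (left) and IkB_SR against MiG (right), with 1 point per line and a bar at the mean over the 5 lines for each gene. SLC7A11 has all 5 points above 0 on the left, AKR1C1 and NQO1 have all 5 above 0 on the right, and the AKR1B10 points spread most.

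SLC7A11 had the largest mean difference with IKKb, 0.40 ± 0.12 (unadjusted p 0.00569, adjusted p 0.878), positive in 5 of 5 lines. The IKKb to MiG ratio of SLC7A11 was 1.88 in HCC827 and 1.72 in H358 and 1.05 to 1.10 in the other lines. In HCC827, 7 of 10 ATF4 target genes were also at least 1.5-fold higher with IKKb than with MiG, among them ASNS at 3.37, CHAC1 at 3.53 and TRIB3 at 2.04, where 7.99% of all genes were that much higher. In H358 2 of the 10 were that much higher and 1 lower (median log2 ratio 0.04), where 9.18% of all genes were higher, and that IKKb array is the one with the highest spike-in and actin ratio. SLC7A11 in H358 was also 1.51 times the MiG signal with IkB_SR, where 7.35% of all genes were at least 1.5-fold higher. On that array, whose NF-kB targets were not lower, 4 of 10 ATF4 targets were that much higher and 0 lower (median log2 ratio 0.50). In the other lines with IkB_SR, 3 of 10 were that much higher in H23, where 8.93% of all genes were, and 0 in A549, HCC827 and PC9. Each of these ratios rests on 1 array per vector and has no replicate check. GCLM differed by 0.21 ± 0.11 (adjusted p 0.878), positive in 4 of 5 lines, and HMOX1 by -0.11 ± 0.19, negative in 4 of 5. The other GCLM probe sets gave 0.14 and -0.03, so its sign rests on the probe set. Among the regulators all 7 tested had a positive mean difference with IKKb (median 0.22), and 0 passed. SQSTM1 had 0.45 ± 0.14 and BACH1 0.35 ± 0.12, each positive in 5 of 5 lines (adjusted p 0.878 for both).

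With IkB_SR the largest mean differences were those of AKR1B10, 0.56 ± 0.37, positive in 3 of 5 lines, and AKR1C1, 0.44 ± 0.15 (unadjusted p 0.00914, adjusted p 0.996), positive in 5 of 5. The AKR1B10 mean and count include H23, whose MiG signal was 5.32. Over the settings run that mean lay between 0.23 and 0.84. The AKR1C1 count rests on the probe set, since the next brightest gave 0.028 and was positive in 3 of 5 lines. NQO1 differed by 0.20 ± 0.08, also positive in 5 of 5 lines (unadjusted p 0.0251), and its other probe sets gave 0.21 in 5 and 0.29 in 4 of 5 lines. By line, IkB_SR was above MiG for 9 of 9 members in A549, 8 in PC9, 8 in H358, 4 in HCC827 and 3 in H23, where 42.7%, 50.5%, 51.3%, 52.7% and 55% of all genes were above. The H358 IkB_SR array, which did not show lower NF-kB targets, enters these counts and the means over lines. In A549 IKKb was also above the same MiG array, for 7 of 9 members, with 43.4% of all genes above. The gene-specific AKR1C1 probe set went the other way in A549, with 2035 for IkB_SR against 3261 for MiG. In PC9 AKR1B10 had 0.50 times the MiG signal with IKKb and 2.55 times with IkB_SR, and AKR1C1 0.85 and 1.54 times. These 2 were the PC9 members at least 1.5-fold higher with IkB_SR, where 5.6% of all genes were. With IKKb in PC9, 7.07% of all genes were at least 1.5-fold lower than with MiG. The PC9 Dap signal was 4354 with IKKb and 4047 with IkB_SR, against 2376 with MiG. In A549 HMOX1 had 1.54 times the MiG signal with IkB_SR, and in H23 0.53 times. At least 1.5-fold higher with IkB_SR were 3.54% of all genes in A549, and at least 1.5-fold lower 4.65% in H23. The AKR1B10 ratios of H23 rest on the dim MiG signal of 5.32 and are not read by themselves. Of the 25 other NRF2 targets tested, 24 had a positive mean difference with IkB_SR (median 0.16) and 0 passed.

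Set directly against IkB_SR, IKKb gave mean differences from -0.43 ± 0.37 for AKR1B10 to 0.16 ± 0.12 for SLC7A11, negative for 5 of 9 members (median -0.15, with 46.9% of all genes positive). IKKb was above IkB_SR for 0 of 9 members in A549 and 2 in PC9, where 50.2% and 45.4% of all genes were above. It was above for 7 members in H23, 6 in H358 and 4 in HCC827, against 46.5%, 50.7% and 45.5% of all genes. AKR1B10 in PC9 had 0.19 times the IkB_SR signal, where 8.7% of all genes were at least 1.5-fold lower. GCLC and AKR1C1 were lower with IKKb in 4 of 5 lines, with mean differences of -0.16 ± 0.08 and -0.22 ± 0.15. Of the other NRF2 targets 19 of 25 had a negative mean difference (median -0.20) and 0 passed. Whether the vector effect differs between lines could not be tested with 1 array per line and vector.

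In LLC the same genes were read with IKKb and MiG. Nqo1 signals were 677 and 872 with IKKb and 753 and 777 with MiG. Hmox1 had 464 and 369 with IKKb against 343 and 359 with MiG, and was the only one of the 8 whose arrays did not overlap (log2 0.23 ± 0.23), where those of 22% of all genes did not. Gclc had 2207 and 1922 with IKKb against 2132 and 2107 with MiG, and Gclm had 2805 and 2914 against 2529 and 2960.2. The arrays of Nqo1, Gclc and Gclm overlapped between the vectors. Txnrd1 had 6338 and 6161 with IKKb against 7348 and 5986 with MiG, Srxn1 1712 and 1129 against 1490.5 and 1309, and Slc7a11 127 and 153 against 124 and 144. Akr1b10 split by array number, with 629 and 382 with IKKb against 758 and 355 with MiG, as the Dap spike-in did, at 1567 and 19.4 with IKKb against 1679 and 28.7 with MiG. No member passed (adjusted p 1 for each of the 8), where 3 of 12554 genes, 0.0239%, did, and 235 genes and 0 members had an unadjusted p under 0.05. Of the NF-kB targets, 6 of 6 tested had a positive difference (median 1.32), and Nfkbie, an NF-kB inhibitor, was higher (11.6-fold, adjusted p 0.0379), a call lost with quantile normalization, median centring, either other filter, the mean of probe sets or no trend. Akr1b8, a mouse relative of AKR1B10, had mean signals of 3395 with IKKb and 3357 with MiG (SD 383 and 182, n = 2 each), and 6 of the 8 Akr1c genes listed were not kept by the filter.

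**Figure D5:**
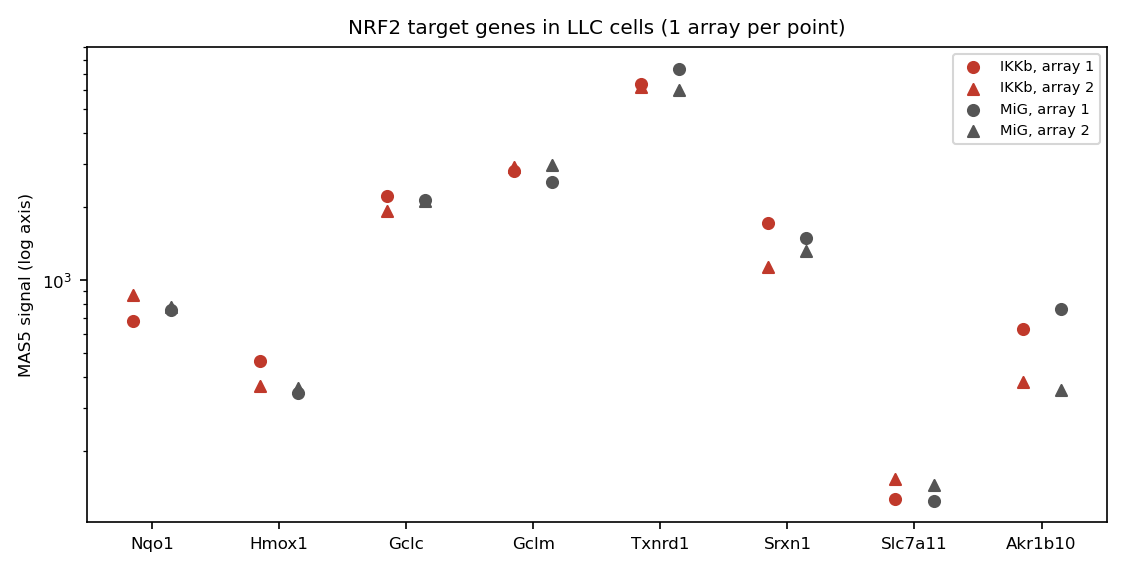
MAS5 signal on a log axis of the 8 mouse counterparts in LLC, with IKKb (red) left of MiG (grey) and array 1 as circles and array 2 as triangles. Groups overlap for all genes but Hmox1, where both IKKb points (464 and 369) lie above both MiG points (343 and 359).

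The genes whose pattern over the 15 human arrays was most like that of NQO1 were GCLC (Pearson r 0.968), UQCR10 (0.946), JAGN1 (0.94), NARS2 (0.939) and ETFB (0.932), of 16245 genes ranked. Among the members SLC7A11 came at rank 34 (0.9) and GCLM at rank 986 (0.656). The 15 arrays are 3 from each of 5 lines and so are not independent, and the r values describe mainly the order of the lines.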

How the data were processed

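Total RNA of 15 human and 4 mouse samples was labelled and hybridised to Affymetrix arrays, per the labels' protocols. The deposited values are a linear intensity per probe set, computed with GCOS 1.4 and MAS5 per the submitters' processing notes, and near the background they are noisy. Of 54675 human and 45101 mouse probe sets, 62 and 64 controls were left out after a first fit, and 41091 and 34945 name 1 gene in the platform annotation. The brightest stands for a gene. Signals were taken as log2(signal + 16), and genes were kept above the array's 40th percentile on at least 5 (vectors), 3 (lines) or 2 (LLC) arrays. limma 3.58.1 in R 4.3.3 (lmFit, eBayes with trend, two-sided) was fitted with line as a block, or vector as a covariate for lines, with Benjamini-Hochberg adjustment over all genes and a threshold of 0.05. A fold against a gene below the percentile on every array of a group takes the percentile in its place. The fits were tested on simulated data. Same-numbered human arrays are the same line, and their deviations correlated at 0.8 to 0.917. The labels do not say whether the LLC replicates are separate cultures, so p-values measure the spread between these samples. The members, lists, tests and alternatives were chosen with earlier results of these data known. The named genes are the members, their mouse counterparts and relatives, the regulators, and listed genes past the threshold or used as examples. Alternatives were other pseudocounts, normalizations, filters and probe set summaries, no trend, other blocks and left-out arrays. Detection calls were not used here.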

Additional observations from a re-analysis of the deposited data

Results flagged for a closer look

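HMOX1 in A549 with IkB_SR stood apart from the other lines with that vector, at 13.18 on the log2(signal + 16) scale against 9.156 in the nearest line and 7.769 in the lowest. The gap to the nearest line was 0.744 of the whole range of the 5 lines, past Dixon's 95% critical value of 0.71. The search covered 54 groups of 5 values, in which chance alone flags about 1 in 20.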

How the results depend on the processing

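The counts of members past the threshold stayed within 1.5 times in every setting run (8 to 9 in A549, 6 to 7 in H23, 6 to 8 in H358, 9 in HCC827, 8 to 9 in PC9, 8 to 9 for A549 against H23, and 0 in each vector contrast and in LLC), and so did the gene counts of the line contrasts. For IKKb against IkB_SR, 140 genes became 86 with no filter, 42 with the mean of probe sets, 21 with no trend, 0 with no replicate block and 36 without A549 and PC9, a setting chosen after seeing the data, and 24 to 128 when 1 line was left out (65 without H23, 31 without HCC827, 24 without PC9). IKKb against MiG gave 1 gene with the mean of probe sets, and IkB_SR against MiG gave 0 to 8 with 1 line left out, 8 of them without H358. In LLC the 3 genes became 0 with quantile normalization, median centring, no filter, the 60th percentile filter, the mean of probe sets or no trend, 222 with the replicate block, and 5 to 142 with 1 array left out (5 and 10 without IKKb array 1 or 2, 42 and 142 without MiG array 1 or 2). Same-numbered LLC arrays deviated together (r 0.53), but the numbers are not known to pair them. Keeping the control probe sets, also tried after seeing the data, left 140, 0, 0 and 3.

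Members changed sign in 1 or more settings only where they had not passed. For IKKb against MiG, AKR1B10 had -0.050 with a pseudocount of 64, NQO1 -0.034, GCLC -0.045 and TXNRD1 -0.0082 with quantile normalization, and GCLC -0.12 and AKR1C1 -0.13 with the mean of probe sets. In these last 2 settings IkB_SR against MiG gave TXNRD1 -0.012 and -0.069, and H358 TXNRD1 had 0.056 and 0.037. For TXNRD1 the mean of probe sets takes in the dim second probe set. In LLC Nqo1 had -0.049 and Txnrd1 0.041 with quantile normalization, and Akr1b10 0.10 with the mean of probe sets. With 1 line, or the H358 IKKb array, left out, IKKb against MiG ran from -0.022 to 0.050 for GCLC, -0.091 to 0.11 for SRXN1 and -0.27 to 0.42 for AKR1B10. IkB_SR against MiG ran from -0.068 to 0.32 for HMOX1, -0.0056 to 0.17 for GCLM and -0.14 to 0.043 for SRXN1, and IKKb against IkB_SR from -0.41 to 0.0066 for HMOX1, -0.035 to 0.19 for SRXN1 and -0.75 to 0.053 for AKR1B10. H358 TXNRD1 ran from -0.045 to 0.013 with 1 vector left out. With 1 LLC array left out, Nqo1 ran from -0.17 to 0.19, Gclc -0.14 to 0.058, Gclm -0.050 to 0.18, Txnrd1 -0.23 to 0.062, Srxn1 -0.30 to 0.29, Slc7a11 -0.066 to 0.17 and Akr1b10 -0.61 to 0.45. Without A549 and PC9, IKKb against MiG gave GCLC -0.026, IkB_SR against MiG gave HMOX1 -0.22 and GCLM -0.10, and IKKb against IkB_SR gave HMOX1 0.18 and AKR1B10 0.12. SRXN1 passed in H23 with median centring (-0.36, adjusted p 0.0314) and NQO1 in H358 with quantile normalization (0.19, adjusted p 0.0198), and SLC7A11 in H358 missed the threshold with the mean of probe sets (-0.35, adjusted p 0.0713). The cause of these changes was not tested.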
